A study of Homo sapiens with 8 samples.

Results

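RNA from NCI-H2009 cells that received a guide RNA to the enhancer e3 was compared with RNA from the same cells given a guide that matches no human sequence. The comparison took 6 of the 8 sequenced libraries, namely 2 of e3 guide 1, 2 of e3 guide 2 and 2 of the non-targeting guide. It covered 13912 of the 52576 genes listed, those with a mean of at least 1 RPKM (reads scaled to gene model length and library depth) over these 6 libraries. NCI-H2009 is an established human lung adenocarcinoma line, grown in RPMI medium with 10% serum. Cells of all 4 groups had been transfected with the dCas9-KRAB fusion before the guides, so controls and e3 libraries share it. The remaining group, 2 libraries from cells with dCas9-KRAB and no guide, took part in no test and appears only as a level set beside the others. Nothing in the labels tells whether the 2 libraries of a group were separate cultures. The p-values therefore cover the spread between libraries, which may be technical only.

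In dCas9-KRAB a Cas9 that can bind but not cut DNA is fused to the KRAB domain, and the guide RNA brings this domain, with the repressors that it attracts, to a chosen sequence. Enhancers are stretches of DNA that raise transcription of genes at a distance, and e3 belongs to a group of enhancers lying beyond MYC that is amplified in some lung adenocarcinomas. MYC is a transcription factor that pairs with MAX on E-box sequences. It is known for driving genes of ribosome production, protein folding and metabolism, and for holding down genes of adhesion and growth arrest.

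The 6 libraries held between 3868830 and 5745110 reads as inferred from the steps between low RPKM values, with a median of 124 reads per tested gene and library. All 7 epithelial markers were above 1 RPKM, and EPCAM, the epithelial adhesion molecule, was lower with the e3 guides (210.97 to 234 RPKM) than with the non-targeting guide (251 and 254 RPKM). Of 7 alveolar and club cell markers NKX2-1 alone passed 1 RPKM in every library, and SFTPC, SFTPA1, SFTPD and SCGB1A1 were listed at 0. The fibroblast genes COL3A1, PDGFRB, THY1, LUM and DCN were listed at 0 in all 6, as were the leukocyte genes CD3E and LYZ. The summed fibroblast markers, nearly all COL1A1, lay between 5.06 and 5.76 RPKM in the non-targeting and between 6.15 and 7.18 RPKM in the e3 libraries. The summed leukocyte markers, nearly all the lysosomal gene CD68, lay between 21.9 and 24.1 RPKM and between 28.6 and 32.1 RPKM. Their part in the results was not tested. The summed epithelial markers lay between 2708 and 2860 RPKM with the non-targeting guide and between 3099.9 and 3191 RPKM with the e3 guides, a sum made up largely of keratins. The sum of all RPKM values also differed between the groups, at 365111 and 366488 with the non-targeting guide against 347023 to 355799 with the e3 guides.

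Expression of 960 genes differed between the e3 guides and the non-targeting guide (6.9% of those tested), 464 of them higher (3.34%) and 496 lower (3.57%), in limma with Benjamini-Hochberg adjustment at an adjusted p under 0.05. A gene passing this test is said below to have risen or fallen, and changes are differences of log2(RPKM + 1), which understate the change of low genes. Most changes were small. The median change was 0.52 among the genes that rose and -0.41 among those that fell, and 46 genes (0.331%) changed at least 2-fold, 34 upwards and 12 downwards. In all 960 genes the 4 e3 libraries lay on one side of both non-targeting libraries, as they did in 4504 of the 13912 genes tested (32.4%).

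The share of genes passing the test grew with their level. It was 1.07% between 1 and 3 RPKM, 7.03% between 10 and 30 RPKM and 41.1% from 100 RPKM upwards, where 29.5% of the genes fell and 11.6% rose. Counts for any group of genes are to be read beside the 6.9% of all genes tested. Those for highly expressed groups are to be read against the shares by level. The number of calls also rested on having both control libraries. Without non-targeting replicate 1 it was 6, and without non-targeting replicate 2 it was 20, although 960 and 959 of the 960 genes kept their sign. Of 133 other named genes that passed, 3 and 9 still did. The number of calls was 487 without guide 2 replicate 1 and 550 without guide 2 replicate 2. Scaling the libraries to equal RPKM sums gave 630 higher and 364 lower genes, 63.4% higher in place of 48.3%.

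**Figure D1:**
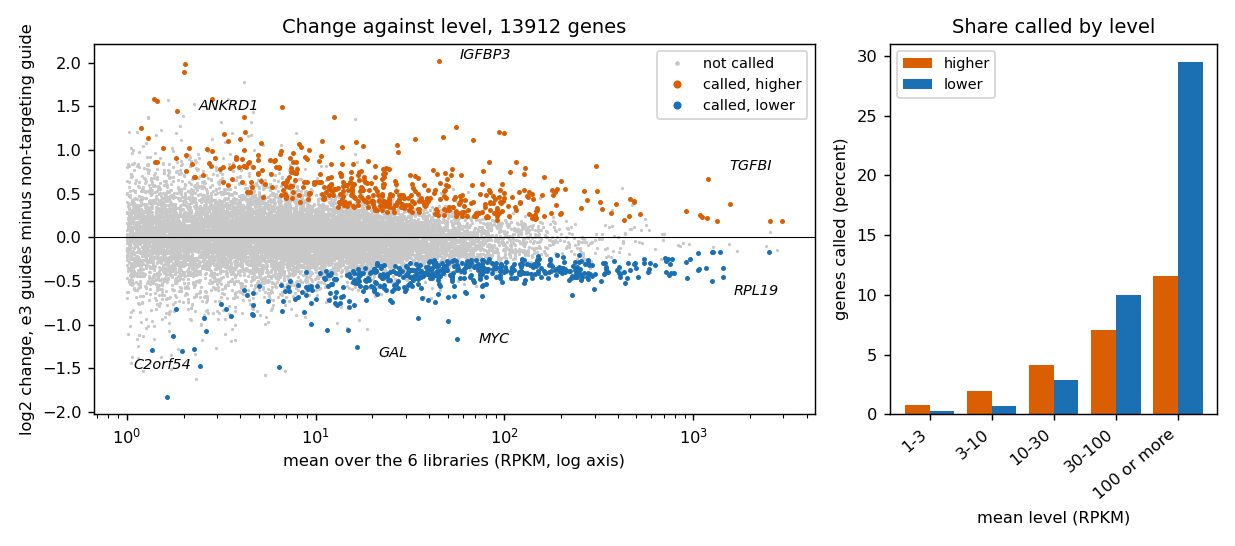
Left, log2 change of each of the 13912 genes (e3 guides minus non-targeting guide) against its mean over the 6 libraries in RPKM on a log axis, with genes that passed the test in colour. Right, percent of genes called higher and lower by mean level. The share called lower rises from 0.291% at 1 to 3 RPKM to 29.5% from 100 RPKM upwards.

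MYC (ENSG00000136997.9, chromosome 8), the presumed target of the enhancer, was lower in all 4 e3 libraries. Its level was 88.9 and 90.1 RPKM with the non-targeting guide, 42.4 and 43.4 under guide 1, and 36.3 and 36.2 under guide 2. The groups did not overlap, and guide 2 gave the lowest values. The means were 89.5 ± 0.833 RPKM (SD, n = 2) and 39.6 ± 3.87 RPKM (SD, n = 4), a ratio of 0.442. MYC fell by 1.16 ± 0.09 (SE) on the log2 scale (limma, adjusted p = 0.00219), by 1.04 with guide 1 alone and by 1.28 with guide 2 alone (adjusted p = 0.00117 and 0.000311). The exact two-sided permutation test gave p = 0.0667, the smallest that the 15 arrangements of 6 libraries allow. The difference between the guides was -0.24 and did not pass (adjusted p = 0.261). Without non-targeting replicate 1 the change was -1.17 with an adjusted p of 0.0553. Cells without a guide had 74.6 and 72.7 RPKM, between both groups and nearer the non-targeting guide.

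Of 27 genes tested around MYC on 8q24, MYC included, MYC fell, FBXO32 and KCNQ3 rose, and 24 did not pass. The 3 pooled calls are 11.1% of the list, beside 6.9% of all genes tested. With guide 1 alone FBXO32 rose and MYC fell. With guide 2 alone FBXO32 rose and 3 genes of the list fell, MYC among them. FBXO32, which encodes a ubiquitin ligase subunit of muscle atrophy, measured 38.3 and 34.5 RPKM with the non-targeting guide, 57.3 and 57.5 under guide 1, and 64.9 and 61.2 under guide 2. It rose by 0.71 ± 0.08 (adjusted p = 0.00468). Its level without a guide was 52.0 and 49.6 RPKM, closer to the e3 libraries. The potassium channel gene KCNQ3 was low throughout, at 1.34 and 1.31 RPKM against 2.57 to 3.10 RPKM, and rose by 0.69. KCNQ3 passed with neither guide alone (limma, adjusted p = 0.103 and 0.0604). PVT1, the long noncoding RNA beside MYC, had 1.87 and 2.26 RPKM with the non-targeting guide and 1.59 to 2.30 RPKM with the e3 guides. These ranges overlap, and its change was -0.09 ± 0.19 (adjusted p = 0.846). Among 10 tested genes of the MYC dimerization network MYC alone passed. Its partner MAX changed by -0.07, and the antagonists MXI1 and MXD1 by -0.62 and -0.26 without passing.

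The largest falls that both guides shared were in genes of varied function. C2orf54 had 3.32 and 4.55 RPKM with the non-targeting guide and 0.91 to 1.02 RPKM with the e3 guides. This change of -1.30 rests on as few as 11 reads in a library. Without a guide C2orf54 had 10.5 and 12.9 RPKM, above both groups. GAL, which encodes the neuropeptide galanin, went from 27.5 and 27.6 RPKM to 9.35 and 13.3 with guide 1 and 11.5 and 10.2 with guide 2. It fell by 1.25 ± 0.13 (adjusted p = 0.00468), to a level like that without a guide (9.83 and 12.4 RPKM). For GAL the non-targeting libraries were high beside all 6 others.

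NTHL1, a DNA glycosylase of base excision repair, had 25.4 and 20.9 RPKM with the non-targeting guide, 13.1 and 11.9 under guide 1, and 8.63 and 9.23 under guide 2. It fell by 1.06 ± 0.17. FABP5, a fatty acid binding protein, fell by 0.93, and its copy FABP5P7 by 0.96. Reads of this pair cannot be assigned with certainty to one or the other, and the same holds for the pseudogene PSPC1P1 (-0.75) and for HNRNPH2 (-1.06), which has close paralogs and as few as 3 reads. NPM3, a nucleolar histone chaperone, and IMP4, a factor of the small ribosomal subunit, fell by 0.72 and 0.70. TFAP4, a transcription factor known as a MYC target, had 17.2 RPKM in both non-targeting libraries and between 9.49 and 12.6 RPKM in the e3 libraries. It fell by 0.69. The remaining genes chosen by size of fall were HPDL, FAM216A and S100A14, with changes of -0.88, -0.78 and -0.69.

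IGFBP3 (ENSG00000146674.8, chromosome 7) gave the largest rise on log2(RPKM + 1) among the genes that both guides shared. It encodes a secreted protein that binds insulin-like growth factors. Its level was 13.2 and 14.99 RPKM with the non-targeting guide, 58.7 and 61.3 under guide 1, and 61.5 and 59.0 under guide 2, with no overlap between the groups. Cells without a guide had 14.8 and 12.5 RPKM, as low as the non-targeting libraries. IGFBP3 rose by 2.02 ± 0.07 (adjusted p = 3.69e-05), and by 2.02 with each guide alone. It is 1 of 6 genes that still passed without non-targeting replicate 1, where its change was 1.93.

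Several of the next largest rises were in genes of cell adhesion and contraction. ITGB6, the beta subunit of the integrin that activates latent TGF-beta, had 27.9 and 27.8 RPKM with the non-targeting guide. It had 57.1 and 59.6 RPKM with guide 1, 78.3 and 81.9 with guide 2, and 12.4 and 14.6 without a guide. The e3 libraries were all above both control groups, and ITGB6 rose by 1.27 ± 0.15 (adjusted p = 0.0065). EDIL3, a secreted integrin ligand, had 27.4 and 24.03 RPKM with the non-targeting guide and 56.8 to 59.9 RPKM with the e3 guides, a rise of 1.15 ± 0.07. NPNT, an extracellular matrix protein and integrin ligand, had 1.79 RPKM in both non-targeting libraries and 4.66 to 5.72 RPKM with the e3 guides, and rose by 1.13. MYL9, a myosin regulatory light chain, had 46.8 and 58.9 RPKM against 92.4 to 146 RPKM and rose by 1.20.

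Growth factors and their modulators were also among the largest rises. MDK, the heparin-binding growth factor midkine, had 18.1 and 18.4 RPKM with the non-targeting guide and 37.7 to 47.6 RPKM with the e3 guides, a rise of 1.12 ± 0.10 (adjusted p = 0.00314). PMEPA1 and TGFB1I1, known TGF-beta targets, rose by 1.10 and 1.08. DKK3, a secreted protein of the Dickkopf family, rose by 1.07. GPC1, a cell surface heparan sulfate proteoglycan, rose by 1.10, from 5.27 and 6.18 RPKM to between 12.5 and 13.9 RPKM, but cells without a guide had 12.5 and 13.4 RPKM. ANKRD1, a target of the YAP coactivator, likewise had 0.325 and 0.319 RPKM with the non-targeting guide, 2.02 to 3.25 RPKM with the e3 guides, and 3.77 and 3.83 RPKM without a guide. Its change of 1.44 rests on as few as 3 reads in a non-targeting library. With a pseudocount of 0.1 it was 2.67, above the 2.09 of IGFBP3 on that scale. RRAD, LRRN1 and SEMA5A completed the group with rises of 1.37, 1.12 and 1.10. The next gene outside the chosen size range was THBS1 among the rises (1.06) and C1QBP among the falls (-0.68). Without non-targeting replicate 1 or 2, 2 and 4 of these 27 largest changes other than MYC still passed, IGFBP3 and EDIL3 in both cases.

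**Figure D2:**
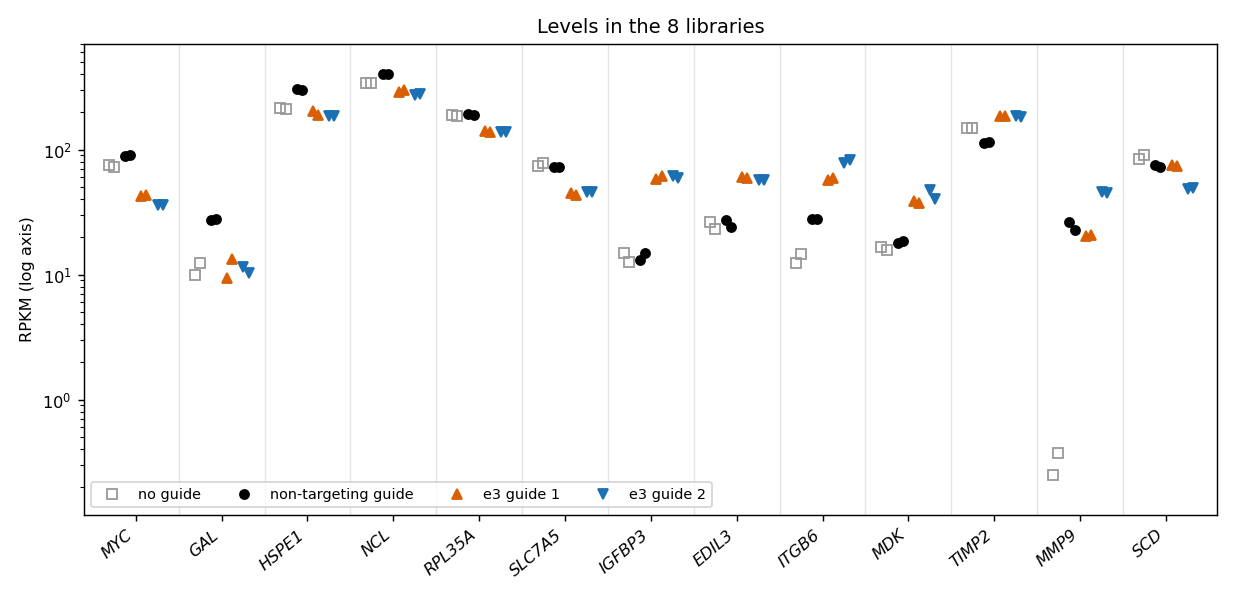
RPKM on a log axis in each of the 8 libraries for 13 genes, 1 point per library and 1 symbol per group. MYC, GAL, HSPE1, NCL, RPL35A and SLC7A5 are lower and IGFBP3, EDIL3, ITGB6, MDK and TIMP2 higher in all 4 e3 libraries than in both non-targeting libraries, while MMP9 and SCD differ between the guides.

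Genes of protein synthesis were mostly lower with the e3 guides. Of 78 cytosolic ribosomal protein genes, which encode the structural proteins of the ribosome, 70 fell and none rose, with a median change of -0.38 where the median of all genes tested was 0.00035. All 78 changes were below 0, between -0.52 and -0.17. RPL35A, for example, had 192 and 189 RPKM with the non-targeting guide, 141 and 137 under guide 1, and 138 and 139 under guide 2, with 191 and 186 without a guide. It fell by 0.45 ± 0.04 (adjusted p = 0.00343). The very abundant RPL19 and RPL27 fell by 0.50 and 0.45, and RPS21 fell by 0.47. RPL10, RPL28, RPL41, RPS4X, RPS15A, RPS20, RPS26 and FAU, with changes of -0.28 to -0.17, did not pass. Ribosomal protein genes have many processed pseudogenes, so single values depend on how shared reads were assigned.

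Nucleolar factors that process and assemble ribosomal RNA followed the same direction. Among 59 tested, 32 fell, none rose, all 59 changes were below 0 and the median was -0.39. NCL, the nucleolar protein nucleolin, had 400.4 and 403 RPKM with the non-targeting guide, 287 and 299.7 under guide 1, and 273 and 276 under guide 2. It fell by 0.50 ± 0.05 (adjusted p = 0.004). NOLC1, a nucleolar phosphoprotein, and DKC1, the pseudouridine synthase dyskerin, fell by 0.62 and 0.64, and BRIX1, a factor of the large subunit, by 0.40. In the machinery of RNA polymerases I and III 4 of 36 genes fell (11.1%, beside 6.9% of all genes tested). None rose, and the median was -0.20. Those were the polymerase I subunits POLR1E (-0.66) and POLR1B (-0.57) and the polymerase III factors GTF3A (-0.34) and GTF3C2 (-0.38). POLR1B passed with neither guide alone, and GTF3A and GTF3C2 with guide 2 only.

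Of 61 translation factors and tRNA synthetases 23 fell and none rose, with a median of -0.26. EIF5A, an elongation factor modified to carry hypusine, fell by 0.42, the threonyl-tRNA synthetase TARS by 0.36 and the elongation factor EEF1A1 by 0.32. Among 72 mitochondrial ribosomal proteins 17 fell, with a median of -0.29, and MRPL49 rose by 0.70. MRPL3 had 67.9 and 71.5 RPKM against 50.5 to 56.1 RPKM with the e3 guides and fell by 0.38. Chaperones, which fold newly made proteins, fell in 23 of 38 cases and rose in none, with a median of -0.33. HSPE1 and HSPD1 encode the mitochondrial co-chaperonin and chaperonin and are transcribed head to head. HSPE1 had 305 and 299 RPKM with the non-targeting guide, 203 and 190.3 under guide 1, and 187 and 184 under guide 2, and 215 and 209.6 without a guide. HSPD1 had 395 and 377 RPKM against 241 to 267 RPKM. They fell by 0.66 ± 0.05 and 0.59 ± 0.05 (adjusted p = 0.00219 and 0.00314). CCT7 and CCT5 of the cytosolic chaperonin fell by 0.45 and 0.42, and HSP90AB1 by 0.41.

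All these groups kept a median below 0 under median-ratio scaling, quantile normalization and equal RPKM sums. Quantile normalization gave the smallest fall for the ribosomal proteins, a median of -0.26 with 58 genes lower. It also gave smaller changes for CCT7, EEF1A1 and HSP90AB1, at -0.26, -0.18 and -0.27. Without non-targeting replicate 1 none of the genes in these groups passed, and without non-targeting replicate 2 only HSPE1 and HSPD1 did. Many members are highly expressed, where 29.5% of all tested genes fell.

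E-boxes are the sequences that MYC and MAX bind, so the promoters of tested genes were searched for CACGTG, which reads the same on both strands. In the lists below, tested members were counted whether or not they had risen or fallen. A promoter here is 250 bases before to 50 after the start of the gene in RefSeq (GRCh38.p14). The motif was found in 7.43% of 27305 promoters and in 10.2% of the 9687 promoters of tested genes. These 9687 are fewer than 80% of the 13912 genes tested, so the 10.2% is only a rough comparison. It was found in 20 of 50 promoters of the nucleolar list (40%), in 4 of 33 of the chaperone list (12.1%) and in 3 of 35 of the actomyosin list (8.57%). The shares of the last 2 lists lie near that of the tested genes. For the ribosomal protein list 62 of 78 promoters were found (79.5%), under the 80% asked of a list, and 3 of these 62 held the motif. For the matrix list it was 24 of 34 promoters (70.6%), none with the motif. Shares of these 2 lists are therefore void. The windows below show it, in capitals, in genes that fell and, for comparison, in TGFB2 and DUSP1, which rose. They run 5′ to 3′ on the strand of the gene. The windows lie at chr2:197500342-197500377 (plus strand) for HSPE1, where the site is shared with HSPD1, chr16:87869617-87869652 (minus) for SLC7A5, chr16:2047856-2047891 (minus) for NTHL1 and chr4:56435777-56435812 (minus) for PPAT. Those of the rising genes lie at chr1:218345272-218345307 (plus) for TGFB2 and chr5:172771283-172771318 (minus) for DUSP1.
HSPE1: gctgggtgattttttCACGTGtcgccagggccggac
SLC7A5: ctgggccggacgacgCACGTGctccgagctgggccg
NTHL1: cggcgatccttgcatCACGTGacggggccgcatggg
PPAT: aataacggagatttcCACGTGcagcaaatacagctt
TGFB2: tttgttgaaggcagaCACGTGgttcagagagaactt
DUSP1: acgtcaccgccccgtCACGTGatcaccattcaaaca
The site of HSPE1 starts 22 bases before its start, that of NTHL1 42 bases before and that of SLC7A5 130 bases before. The motif was therefore present on genes of both directions, and a match says nothing of binding in these cells.

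**Figure D3:**
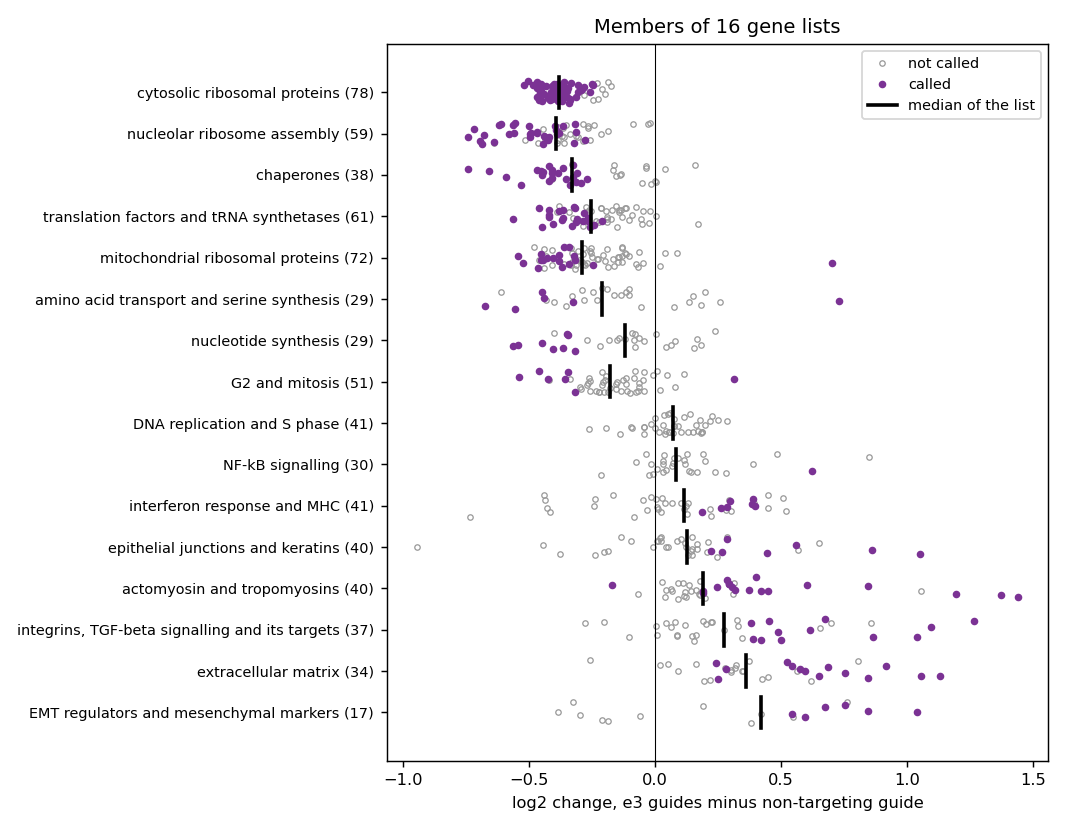
Log2 change (e3 guides minus non-targeting guide) of each tested member of 16 gene lists, with the number tested in brackets, filled points for genes that passed the test and a bar at the median of the list. The ribosomal protein list lies wholly below 0 (median -0.38), and the extracellular matrix list lies above 0 except for 1 gene (median 0.36).

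Genes of amino acid and nucleotide supply fell in part. Of 29 genes of amino acid transport and serine synthesis 5 fell, and SLC1A4, a neutral amino acid transporter, rose by 0.73. Of this list 20.7% passed, beside 6.9% of all genes tested. SLC7A5, the catalytic subunit of a leucine transporter, had 72.8 and 72.5 RPKM with the non-targeting guide, 45.3 and 43.3 under guide 1, and 46.0 and 46.1 under guide 2. It fell by 0.67 ± 0.06 (adjusted p = 0.00261), and cells without a guide had 73.8 and 77.5 RPKM. PSAT1 and SHMT2 of serine and glycine metabolism fell by 0.56 and 0.45, and the glutamine transporter SLC1A5 by 0.44. Of 29 nucleotide synthesis genes 8 fell and none rose (27.6% called). They included the purine enzymes GART (-0.54) and PPAT (-0.56). PPAT had 27.4 and 24.2 RPKM against 15.7 to 19.4 RPKM. In the polyamine pathway ODC1 and SRM, enzymes of synthesis, fell by 0.37 and 0.41, and SAT1, which marks polyamines for breakdown and export, rose by 0.59. ODC1 and SRM passed with guide 2 only, and SAT1 with each guide.

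Of 30 genes of glucose uptake and glycolysis 6 fell and 2 rose (26.7% called, beside 6.9% of all genes tested). HK2, the hexokinase that starts glycolysis, had 27.8 and 28.2 RPKM with the non-targeting guide, 18.2 and 18.9 under guide 1, and 16.8 and 16.5 under guide 2. It fell by 0.64 ± 0.08, to the level without a guide (16.1 and 17.1 RPKM). LDHB and PFKP fell by 0.52 and 0.32. TXNIP, which restrains glucose uptake, rose by 0.54, with 140 and 135 RPKM against 192 to 209 RPKM. FASN, the fatty acid synthase, was the only gene of 31 in lipid and sterol synthesis to pass, and fell by 0.51. This is 3.23% of the list, beside 6.9% of all genes tested. In the respiratory chain 10 of 72 nuclear genes fell and none rose (13.9% called), and the median was -0.18. With guide 1 alone 5 of the 72 fell, and with guide 2 alone 20. SDHB changed by -0.61 and ATP5B by -0.40 (-0.24 under quantile normalization). HK2, NCL, AURKAIP1, CCT5 and CCT7 were the called genes whose log2 levels followed those of MYC most closely by Pearson correlation over the 6 libraries. They fell by 0.64, 0.50, 0.30, 0.42 and 0.45, a direction that follows from choosing them by this correlation.

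The cell cycle lists differed in their counts. None of 41 DNA replication and S phase genes passed in limma, where 3 were higher and none lower at an unadjusted p under 0.05, and their median was 0.07. Of 51 genes of G2 and mitosis 6 fell and MYBL2 rose by 0.31 (13.7% called, beside 6.9% of all genes tested), with a median of -0.18. Changes were below 0 in 45 of the 51, and at an unadjusted p under 0.05 in limma 21 were lower and 1 higher. With guide 1 alone 2 of them fell, and with guide 2 alone 15. PLK1, a mitotic kinase, had 97.9 and 96.1 RPKM with the non-targeting guide, 72.4 and 72.5 under guide 1, and 62.3 and 59.6 under guide 2, and fell by 0.54 ± 0.09 (adjusted p = 0.0166). Cyclin B1 (CCNB1) fell by 0.43 and CDC20, which activates the anaphase ubiquitin ligase, by 0.32. Of 22 G1 genes CCNE2 and E2F1 rose, by 0.74 and 0.39 (9.09% called). With single guides CCNE2 passed with guide 2 only, and E2F1 with neither (limma, adjusted p = 0.113 and 0.0543). The cyclin-dependent kinase inhibitor CDKN1A had 17.6 and 22.2 RPKM with the non-targeting guide, 21.8 and 21.3 under guide 1, and 35.4 and 33.8 under guide 2, and did not pass in the pooled test (0.45 ± 0.22, adjusted p = 0.289). CDKN1A was looked up after its values were seen.

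Some genes of the cell surface, the matrix and the contractile cytoskeleton rose, while most members of each list did not pass. Of 37 genes of integrins and TGF-beta signalling 12 rose and none fell, with a median of 0.27 (32.4% called, beside 6.9% of all genes). They included the alpha-v subunit ITGAV (0.61), which pairs with the product of ITGB6, and the beta-4 subunit ITGB4 (0.42). TGFB2, a ligand of the TGF-beta receptor, had 7.65 and 7.67 RPKM with the non-targeting guide, 15.7 and 14.2 under guide 1, and 19.7 and 18.2 under guide 2. It rose by 1.04 ± 0.13, to near the level without a guide (17.0 and 15.2 RPKM). TGFBI, a matrix protein induced by TGF-beta, had 855 and 858 RPKM against 1295 to 1456 RPKM, and 491 and 494 RPKM without a guide. It rose by 0.67 ± 0.05 (adjusted p = 0.00219), and every e3 library was above every control library.

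Of 34 extracellular matrix genes 14 rose and none fell (41.2% called), with a median of 0.36. TIMP2, an inhibitor of matrix metalloproteases, had 113 and 116 RPKM with the non-targeting guide, 186 in both guide 1 libraries, and 185 and 183 with guide 2. It rose by 0.69 ± 0.04 (adjusted p = 0.00103) and still passed when either non-targeting library was left out. Fibronectin (FN1) rose by 0.75, from 71.4 and 73.8 RPKM to 107 and 109 with guide 1 and 138 and 142 with guide 2. Its level without a guide was 30.6 and 31.4 RPKM. COL6A2, EFEMP1 and THBS1 rose by 0.52, 0.92 and 1.06. Of 24 protease and plasminogen genes 6 rose and none fell (25% called), with a median of 0.25. PLAT, the tissue plasminogen activator, had 202 and 200.4 RPKM against 329 to 386 RPKM and rose by 0.81. The cathepsin CTSB and the sheddase ADAM9 rose by 0.50 and 0.44, and the serine protease TMPRSS2 by 0.89.

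Of 40 actomyosin and tropomyosin genes 17 rose and PFN1, which encodes the actin-binding protein profilin, fell by 0.17. The median was 0.19, and 45% of the list passed. The very abundant actin and thymosin genes ACTG1 and TMSB4X rose by 0.19 and 0.31. TMSB4X had 798 and 788 RPKM with the non-targeting guide and 971 to 997 RPKM with the e3 guides, and its rise was 0.49 under quantile normalization. Tropomyosin 1 (TPM1) and the myosin kinase MYLK rose by 0.85 and 0.60. Genes reported elsewhere as repressed by MYC rose in 8 of 24 cases (33.3% called), with none lower and a median of 0.34. They overlap the lists above, as TGFBI, THBS1 and TXNIP are among them.

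In the pooled test, regulators and markers of the epithelial and mesenchymal states did not move in opposite directions. Of 17 tested mesenchymal genes 6 rose and none fell, all 6 of them matrix or TGF-beta genes (TNC, LOXL2, TGFBI, FN1, SPARC and TGFB2). The pooled calls are 35.3% of the list. With guide 1 alone 5 rose and none fell (median 0.22), and with guide 2 alone 8 rose and 1 fell (median 0.63). The factors SNAI1, TWIST1 and TWIST2 changed by -0.39, -0.21 and -0.33 without passing. SNAI2 had 13.1 and 9.76 RPKM against 14.8 to 24.1 RPKM (0.76, adjusted p = 0.0553), and vimentin (VIM) changed by 0.55 (adjusted p = 0.0586). Among junction and keratin genes of epithelium, 7 of 40 rose and none fell (17.5% called), with a median of 0.13. With guide 1 alone 5 rose and none fell (median 0.12), and with guide 2 alone 7 rose and 2 fell (median 0.07). E-cadherin (CDH1) rose by 0.27, P-cadherin (CDH3) by 0.56 and keratin 7 (KRT7) by 0.44. Keratin 6A (KRT6A), a keratin of activated epithelium, had 9.82 and 10.0 RPKM against 19.9 to 24.2 RPKM and rose by 1.05 ± 0.10. KRT7 was also high without a guide, at 473 and 500.02 RPKM, beside 367 and 381 with the non-targeting guide.

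The medians of these adhesion, matrix, protease and epithelial groups stayed above 0 under all 3 other scalings. Without non-targeting replicate 1 the only gene of them to pass was TIMP2. Without non-targeting replicate 2 TIMP2 and TGFBI passed. In bulk RNA a change in the number of cells of one state and a change in the RNA per cell cannot be told apart.

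Inflammatory and stress genes showed scattered rises. Of 30 genes of NF-kB signalling NFKBIZ alone passed (3.33%, beside 6.9% of all genes tested). NFKBIZ had 11.1 and 11.2 RPKM against 17.1 to 18.6 RPKM and rose by 0.62. Of 23 cytokine and acute phase genes CSF1, IL8 and LCN2 rose (13.0% called), by 0.87, 0.56 and 0.53. LCN2, which encodes the iron-binding lipocalin 2, had 232 and 241 RPKM with the non-targeting guide, 381 and 372 under guide 1, 315 and 307 under guide 2, and 15.3 and 12.8 without a guide. On the log2 scale its step from no guide to the non-targeting guide was thus larger than the step from there to the e3 guides. The same held on this scale for NFKBIZ, IL8, CSF1, HLA-B, HLA-C and TAPBP, and not for HLA-E. Outside these lists it also held for FN1, COL6A2, TGFBI, PMEPA1, VEGFA and P4HA2, and not for ITGB6, MDK or TIMP2. IL8 had 1.06 and 0 RPKM without a guide, beside 25.8 and 23.1 RPKM with the non-targeting guide. Of 41 interferon and MHC genes 7 rose and none fell (17.1% called). With guide 1 alone 11 rose and none fell (median 0.22), and with guide 2 alone 6 rose and 4 fell (median 0.0071). HLA-B rose by 0.39, HLA-C by 0.26 and HLA-E by 0.39, with shared reads between these similar genes uncertain, and the peptide loading factor TAPBP rose by 0.40.

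Among 31 AP-1 and immediate early genes 7 rose and FOSL1, an AP-1 subunit, fell by 0.31 (25.8% called). The phosphatase DUSP1 had 30.9 and 35.6 RPKM against 47.5 to 55.6 RPKM and rose by 0.62, FOSL2 rose by 0.32 and the RNA decay factor ZFP36L1 by 0.73. VEGFA, the vascular growth factor, had 52.0 and 52.5 RPKM with the non-targeting guide, 79.8 and 82.9 under guide 1, and 93.5 and 101 under guide 2. It rose by 0.76 ± 0.10 (adjusted p = 0.00717). It was 1 of 3 genes of 22 in the hypoxia list to rise (13.6%, beside 6.9% of all genes tested), with P4HA2 (0.54) and BHLHE40 (0.30). None of the list fell. These 3 genes were lower without a guide than with the non-targeting guide, VEGFA at 24.8 and 24.2 RPKM. Of 34 chromatin repressors and histone modifiers that KRAB can recruit CBX3 alone passed (2.94%), with a fall of 0.29. When either non-targeting library was left out, no gene of these lists passed.

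Each guide was also compared with the non-targeting guide by itself, and both comparisons use the same 2 non-targeting libraries. With guide 1, 596 genes passed (4.28%), 299 higher and 297 lower. With guide 2, 1200 genes passed (8.63%), 520 higher and 680 lower. No gene was called in opposite directions. Under quantile normalization the split was 297 and 183 for guide 1 and 581 and 495 for guide 2, and with equal RPKM sums it was 379 and 233 for guide 1 and 715 and 455 for guide 2. The ribosomal protein list fell in 61 genes with guide 1 (median -0.32) and in 74 with guide 2 (median -0.44). The extracellular matrix list rose in 13 and 20 genes, with medians of 0.33 and 0.50. As with ODC1 and SRM, the pooled calls of SDHB, CDC20, BHLHE40, PSMB7, PLK2, BID, SNRPF and TXN held with guide 2 only. Those of CBX3 and MUC1 held with guide 1 only.

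**Figure D4:**
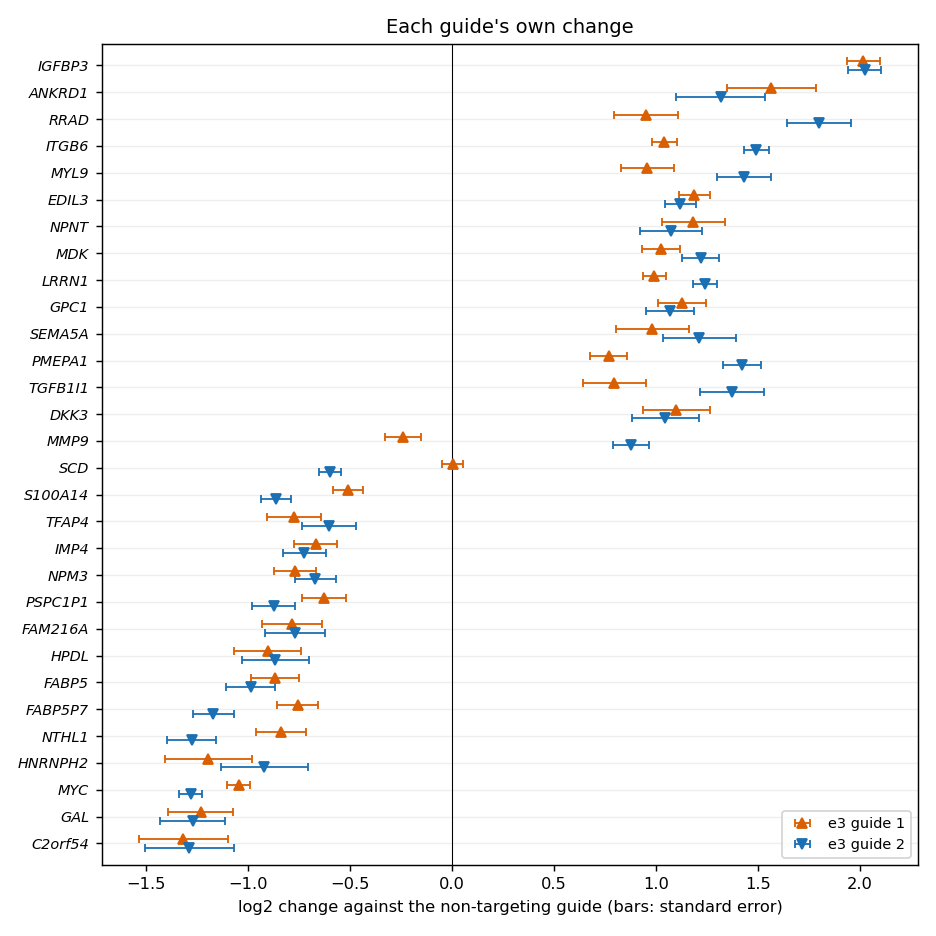
Log2 change of each guide against the non-targeting guide, with its standard error, for the 28 largest shared rises and falls and for MMP9 and SCD, which differed between the guides. The guides lie on the same side of 0 for the 28 shared genes, while MMP9 and SCD passed with guide 2 alone. Both follow from the rules by which these genes were chosen.

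The difference between the guides was tested directly, as guide 2 minus guide 1. In limma 4 genes passed (0.0288%), 3 higher and 1 lower with guide 2, and 1463 genes had an unadjusted p under 0.05. MMP9 was among the higher genes, and SCD was the lower one. MMP9, a metalloprotease, had 26.3 and 22.7 RPKM with the non-targeting guide, 20.2 and 20.9 under guide 1, and 46.2 and 45.3 under guide 2. SCD, the stearoyl-CoA desaturase, had 75.4 and 73.1 RPKM with the non-targeting guide, 75.1 and 73.7 under guide 1, and 48.5 and 48.9 under guide 2. Guide 1 libraries thus lay at the non-targeting level for SCD and slightly below it for MMP9, and the differences were 1.12 and -0.60 (adjusted p = 0.0283 and 0.0431). Neither passed the pooled comparison, where the adjusted p was 0.664 for MMP9 and 0.424 for SCD. When 1 library was left out at most 1 gene passed the test of the guides, and MMP9 and SCD passed in none of these 6 fits. Other named genes had larger values with guide 2 without passing, such as ITGB6 (1.04 and 1.49, adjusted p = 0.0846) and PMEPA1 (0.77 and 1.42, adjusted p = 0.088).

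The libraries without a guide, which entered no fit, were placed on the line from the non-targeting mean to the e3 mean for the 960 genes that changed. Their mean was nearer the non-targeting guide in 575 genes (59.9%), of which 253 lay beyond the non-targeting mean, away from the e3 guides. It was nearer the e3 guides in 385 (40.1%), of which 143 lay beyond the e3 mean. Of the 253 genes 181 had risen and 72 had fallen. ITGB6, TGFBI, FN1, VEGFA and LCN2 were among the 181. The share nearer the non-targeting guide was 64.7% among genes that rose and 55.4% among genes that fell. MYC, IGFBP3, EDIL3, MDK and SLC7A5 were in the first class, and GAL, HK2, GPC1, ANKRD1 and ALDH1A3 in the second. ALDH1A3, an enzyme of retinoic acid synthesis, had 73.6 and 75.0 RPKM with the non-targeting guide, 128 to 146 RPKM with the e3 guides, and 129.8 and 131 RPKM without a guide. For GAL, HK2, GPC1, ANKRD1 and ALDH1A3 the e3 libraries differed less from cells without a guide than from the non-targeting guide. This did not hold for the whole second class. NQO1 had 128 and 125 RPKM with the non-targeting guide and 145 to 156 RPKM with the e3 guides. Without a guide NQO1 had 256 and 245 RPKM, further from the e3 level. These positions are a description with no test.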

How the data were processed

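The deposited values were RPKM per gene and library, per the file headers. The submitters' processing notes name the build hg19 and Cufflinks, with neither role nor version. The aligner, the counting, the strand setting and the annotation are not given in the sources used here. RPKM values were whole multiples of 1 read within 0.03 reads for all genes tested, which gave the depths. No count test was run. Genes averaging 1 RPKM or more over the 6 libraries were tested on log2(RPKM + 1). The tool was limma 3.58.1, run in R 4.3.3 with a two-sided moderated test, a trend of the variance with the mean and Benjamini-Hochberg adjustment, and genes were called at an adjusted p under 0.05. The pooled comparison used 2 groups, so its spread includes the difference between the guides. Single guides and their difference used 3 groups. The fit was also run on simulated data, drawn as independent libraries with the same change for both guides. No result given above rests on that run. Errors on changes are SE, errors on levels SD.

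Members, lists and rules were chosen with earlier results of these data known. The text names MYC and PVT1, the 14 largest rises and 14 largest falls called in the pooled comparison and with each guide, genes that differ between the guides, up to 4 members per list by smallest p, and the 5 genes closest to MYC. Multigene families matched by name were passed over in the choice by size. Other members were named after their values were seen. Promoters were found for 9687 of the 13912 genes, 342 of 464 higher and 345 of 496 lower, so a motif check over the called genes is void, and a list needed promoters for 80% of its tested genes. Chromosomes come from RefSeq. Alternatives were a pseudocount of 0.1, no minimum or 5 RPKM, other scalings, no variance trend, other designs, and leaving out each library. Equal RPKM sums were added after seeing the data. Some tested genes enter all totals but are not reported here.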

Additional observations from a re-analysis of the deposited data

Results flagged for a closer look

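MMP9 and SCD responded differently to the guides in the direct test. The log2 difference, guide 2 minus guide 1, was 1.12 for the metalloprotease MMP9 and -0.60 for SCD, an enzyme of lipid synthesis (limma, adjusted p = 0.0283 and 0.0431). Cells without a guide had 0.25 and 0.371 RPKM of MMP9, far under all 6 other libraries.

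TFAP4 was unevenly spread among the 4 e3 libraries. Guide 2 replicate 2 had 12.6 RPKM and the other 3 between 9.49 and 9.79 RPKM, so that the gap to the next library made up 0.904 of their range, above the critical value of Dixon's test for 4 libraries. All 4 remained below the 17.2 RPKM of both non-targeting libraries. Chance flags about 1 in 20 genes in this way.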

How the results depend on the processing

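MYC kept its direction in all 16 alternatives and its call in 15, with changes of -1.21 to -1.12 when 1 library was left out and an adjusted p of 0.0553 (change -1.17) without non-targeting replicate 1. The counts of calls moved more. For the pooled comparison, guide 1, guide 2 and guide 2 against guide 1, in this order, they were 533, 247, 737 and 1 without a minimum RPKM, and 31, 0, 56 and 0 without the variance trend. Leaving out 1 library gave 6 to 820, 15 to 378, 366 to 994 and 0 to 1. A minimum mean of 5 RPKM gave 36 genes for guide 2 against guide 1. Fits with only the 4 libraries compared gave 348 for guide 1 and 1 for the guides against each other. With a replicate block the counts were 613 for the pooled comparison, 339 for guide 1 and 1 for the guides against each other. The counts under the remaining alternatives stayed within 1.5 times of those reported, and the cause of the moves was not tested. Libraries of the same number did not deviate together (correlations of -0.02, 0.01 and 0.00), so the numbers are not taken as pairs. No named gene that passed changed sign in any alternative. Without the variance trend 14 of 133 such genes still passed, and with the block 118. The median was 124 reads per tested gene and library, and 1.07% of the genes tested passed below 3 RPKM. The part of depth in this low share was not tested.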

Other observations

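Further groups of genes are described here as values, to be read beside the 6.9% of all tested genes that passed. Of 30 proteasome genes PSMD3 and PSMB7, subunits of the cap and of the core, fell by 0.26 and 0.25 and none rose, with a median of -0.15. Of 44 splicing factors 8 fell and none rose (18.2% called), with 42 changes below 0 and a median of -0.16. With guide 1 alone 1 fell, and with guide 2 alone 15. SNRPG and SNRPF, proteins of the spliceosomal ring, fell by 0.44 and 0.65. SNRPF levels were 61.1 and 56.9 RPKM under the non-targeting guide and 32.3 to 42.9 RPKM under the e3 guides. Among 24 antioxidant genes ABCC3 and NQO1 rose by 0.73 and 0.24, and PRDX1 and TXN fell by 0.31 and 0.32 (16.7% called). Under quantile normalization PRDX1 and TXN were at -0.11 and -0.17. The median of this list was -0.06, and 0.05 under quantile normalization.

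Of 22 Wnt genes DKK3 and the receptors FZD1 and FZD6 rose, by 1.07, 0.72 and 0.37, and none fell. FZD6 passed with neither guide alone, and FZD1 with guide 2 only. None of 17 Notch genes passed in limma, where 3 were higher and 1 lower at an unadjusted p under 0.05. STRA6, the receptor for retinol uptake, had 16.3 and 14.8 RPKM against 23.2 to 28.7 RPKM and rose by 0.72, beside ALDH1A3 the only other of 15 retinoic acid genes to pass. Of 18 tested lung and foregut lineage genes MUC1, a mucin of the epithelial surface, rose by 0.58 and none fell. Of 31 p53 and apoptosis genes PLK2 rose by 0.43 and BID fell by 0.42, a share of 6.45% that is near that of all genes.

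By chromosome the share of tested genes that passed ran from 2.53% on chromosome 18 to 11.6% on chromosome 21, leaving out chromosome Y with 2 tested genes. On chromosome 8, where MYC lies, it was 7.38% of the genes tested there, 18 higher and 13 lower, near the 6.9% of all genes. Of 582 tested pseudogenes 54 were lower and 7 higher, and for them the assignment of reads shared with the parent gene is uncertain.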
